A study of Mus musculus with 12 samples.

Results

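The CCAAT/enhancer-binding proteins (C/EBPs) Cebpa, Cebpb, Cebpd and Cebpg, together with Cebpz and the transcriptional co-activator Cited4, were followed through 12 mouse hearts. These 6 genes are 6 of the 53882 entries of the expression table and were taken by symbol. They were chosen by what had been seen in these hearts. Cebpb was selected on its low values in CIP-OE-TAC hearts beside Ctrl-TAC, Cebpa because it was also of interest in these hearts, and the others as relatives or a partner. The contrast CIP-OE-TAC against Ctrl-TAC is therefore a description for all 6 genes, with no test, and Cebpa and Cebpb are described without a test in every comparison that shares those libraries.

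The hearts came from C57BL/6 mice aged 4 months, with 3 animals in each group and 1 RNA-seq library per animal. Transverse aortic constriction (TAC), a band around the aortic arch that raises the pressure against which the heart pumps, or sham surgery was done first, and hearts were taken 8 weeks later. Control mice (Ctrl-Sham and Ctrl-TAC) were CIP-KI-flox littermates, with a transgene for the cardiac ISL1-interacting protein (CIP, gene Mlip) behind a floxed stop in the Rosa locus and no Cre. CIP-OE mice (CIP-OE-Sham and CIP-OE-TAC, written KI in the labels) carried the same allele and aMHC-MerCreMer, a cardiomyocyte-driven Cre that tamoxifen activates, and tamoxifen was given after surgery. CIP cannot be told apart from the active Cre, which the controls lacked. Whole hearts were sequenced, so that fewer cells of a type and less RNA per cell cannot be told apart.

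C/EBP proteins are basic leucine zipper (bZIP) transcription factors that bind DNA as dimers with each other or with other bZIP proteins. C/EBPβ and C/EBPδ are best known from the acute-phase response downstream of IL-6 and from the early steps of fat cell formation, and C/EBPα from later adipocyte and liver differentiation. C/EBPγ lacks a classical activation domain and works as a dimer partner. Cebpz shares the name but is not a bZIP protein, and its yeast relative Noc1 acts in ribosome assembly. Cited4 binds the co-activators CBP and p300, and in mouse hearts C/EBPβ is known from studies of exercise as a factor that holds Cited4 low.

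Each library held 6990445 to 7704812 reads in genes, which gave the 6 genes 5 to 276 reads per library. Mlip, the gene of the transgene, lay at 823 to 1322 normalized counts in the 6 control hearts, at 5492, 4596 and 1910.5 in CIP-OE-Sham and at 5909 to 8232 in CIP-OE-TAC hearts, as the labels say. The 8 cardiomyocyte markers, none at 0, summed to 201368 to 300868 normalized counts. The Ctrl-TAC libraries stood apart in base composition. Relative to each gene's mean, the median of the 1324 genes richest in GC (10% of the genes) minus that of the 1324 poorest was 0.71 to 1.10 (log2) in the 3 Ctrl-TAC libraries and -0.65 to 0.0057 in the other 9.

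The promoters of 4 of these genes were in the RefSeq table of GRCm38.p6 and are shown as background. Most of each window lies before the start of the gene, and the GC content used for the libraries is that of the exons. Each runs from 250 bases before to 50 bases after the start of the gene, 5′ to 3′. Capitals mark TGACG, a part of the cyclic AMP response element, or its reverse complement CGTCA.
Cebpb promoter, chr2:167688665-167688964, plus strand: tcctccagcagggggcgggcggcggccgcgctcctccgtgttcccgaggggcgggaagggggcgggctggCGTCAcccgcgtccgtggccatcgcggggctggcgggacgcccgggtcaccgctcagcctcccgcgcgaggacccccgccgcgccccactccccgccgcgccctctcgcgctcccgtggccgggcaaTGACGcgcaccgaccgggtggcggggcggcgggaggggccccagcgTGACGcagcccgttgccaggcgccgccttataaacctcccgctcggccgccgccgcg
Cebpa promoter, chr7:35119043-35119342, plus strand: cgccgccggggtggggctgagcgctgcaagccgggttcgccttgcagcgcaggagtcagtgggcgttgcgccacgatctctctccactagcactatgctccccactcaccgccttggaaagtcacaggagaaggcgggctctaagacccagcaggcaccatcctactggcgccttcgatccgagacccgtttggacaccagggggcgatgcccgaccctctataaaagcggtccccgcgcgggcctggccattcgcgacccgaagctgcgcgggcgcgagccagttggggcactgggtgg
Cited4 promoter, chr4:120666313-120666612, plus strand: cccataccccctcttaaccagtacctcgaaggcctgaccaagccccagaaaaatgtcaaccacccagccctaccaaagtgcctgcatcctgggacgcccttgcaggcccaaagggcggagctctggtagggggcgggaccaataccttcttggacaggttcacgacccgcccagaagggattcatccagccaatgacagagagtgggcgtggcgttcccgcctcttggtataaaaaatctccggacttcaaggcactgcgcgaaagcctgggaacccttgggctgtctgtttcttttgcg
Cebpg promoter, chr7:35056517-35056816, minus strand: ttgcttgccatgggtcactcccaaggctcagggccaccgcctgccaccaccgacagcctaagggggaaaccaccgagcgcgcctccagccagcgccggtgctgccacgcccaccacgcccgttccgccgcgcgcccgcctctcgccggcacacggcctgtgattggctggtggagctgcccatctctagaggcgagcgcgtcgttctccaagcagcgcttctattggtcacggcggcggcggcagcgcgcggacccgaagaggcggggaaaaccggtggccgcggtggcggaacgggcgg
The Cebpb promoter was 80.7% GC, above 99.2% of the 32851 promoters in the table, whose median was 52.7%. The Cebpg promoter was 71.7%, the Cebpa promoter 67.3% and the Cited4 promoter 58.0% GC. TGACG on either strand occurred 3 times in the Cebpb promoter, at bases -180 to -176, -53 to -49 and -7 to -3 from the start, and in none of the other 3 promoters, against 20.8% of all promoters. The GC box GGGCGG, searched on both strands, occurred 5 times for Cebpb, 3 times for Cited4 and 1 time for Cebpg, against 35.7% of all promoters with a match. CCAAT, on either strand, occurred 2 times each for Cited4 and Cebpg, against 37.4% of all promoters with a match. The C/EBP letters TTGCNNAA, the STAT letters TTCNNNGAA and the AP-1 letters TGANTCA, on both strands, were in none of the 4 windows, against 10.8%, 8.30% and 7.81% of all promoters.

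Cebpb was higher in each of the 3 Ctrl-TAC hearts than in any other heart. It is the gene of C/EBPβ (ENSMUSG00000056501), 1 exon on the plus strand of chromosome 2 (GRCm38, 167688915 to 167690418) with 67.2% GC. It measured 24.8, 44.8 and 18.0 normalized counts in Ctrl-Sham, 131, 90.0 and 67.7 in Ctrl-TAC, 9.85, 18.4 and 11.6 in CIP-OE-Sham and 18.6, 23.4 and 4.70 in CIP-OE-TAC hearts. The lowest CIP-OE-TAC value rested on 5 reads, whose 95% Poisson interval, which covers counting error only, was 1.53 to 10.97 normalized counts. The Ctrl-TAC values did not overlap with those of the other groups, whereas the CIP-OE-TAC values lay across those of CIP-OE-Sham. The separation from CIP-OE-TAC goes with how the gene was chosen, and its share over all genes was not counted.

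On the log2(value + 1) scale, which understates the change of low genes, Cebpb was 2.75 ± 0.48 (SE) lower in CIP-OE-TAC than in Ctrl-TAC hearts, a 6.72-fold difference with a 95% interval of -3.78 to -1.72 on the log2 scale. This value chose the gene, which its interval does not allow for. It is rank 31 from the lowest of the 13392 genes tested in CIP-OE-TAC against Ctrl-TAC. Among all genes, 4.82% were called higher and 6.88% lower there (adjusted p under 0.05 and fold over 1.5), from which nothing is read for these 6. With TAC in control mice Cebpb lay 1.73 ± 0.48 (SE) higher, and it lay 0.013 ± 0.48 higher in CIP-OE-TAC than in CIP-OE-Sham hearts. It lay 1.02 ± 0.48 lower in CIP-OE-TAC than in Ctrl-Sham hearts (95% interval -2.05 to 0.016), and without KI_TAC_3587, the animal with 5 reads, that difference was -0.37. The difference from Ctrl-TAC without KI_TAC_3587 was -2.10.

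**Figure D1:**
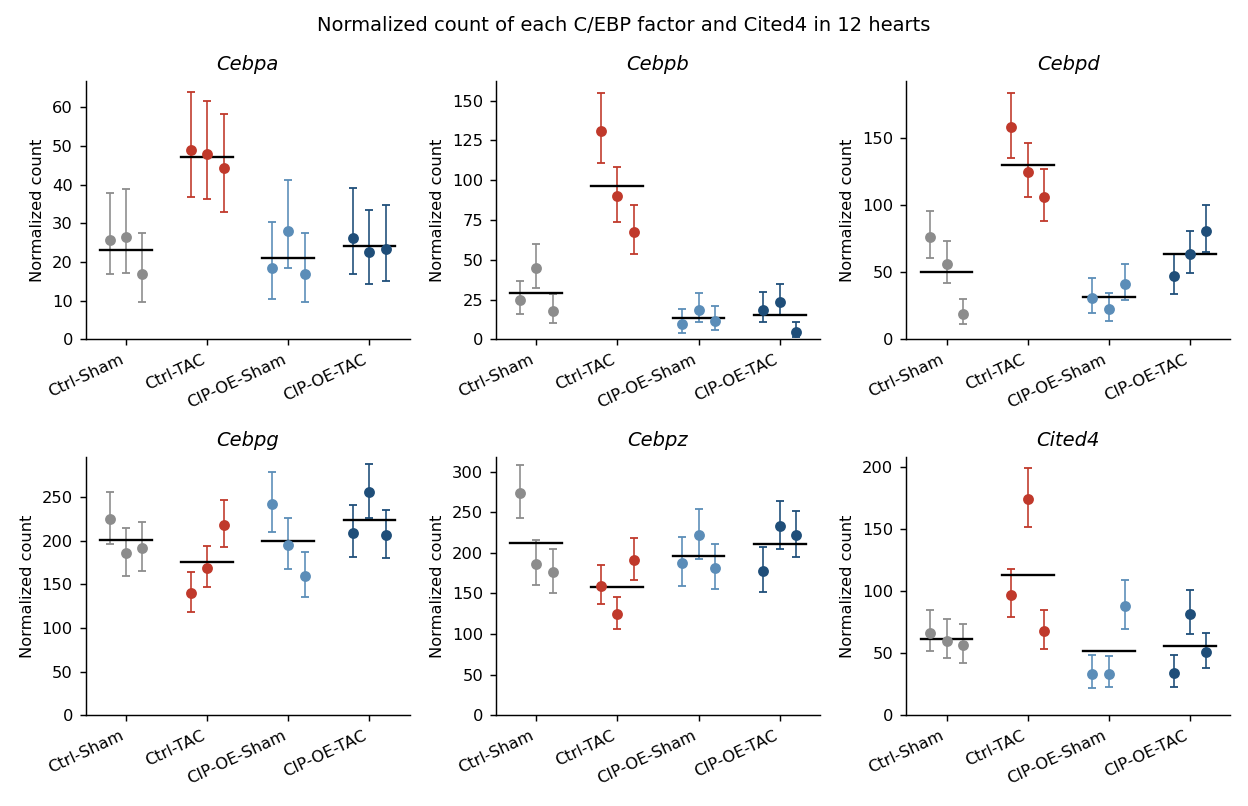
Normalized count (linear axis) of each gene in the 12 hearts. Points are hearts, in the order of the animal numbers within a group, whiskers are 95% Poisson intervals of the reads and black lines are group means of 3 hearts. Cebpa, Cebpb and Cebpd in the 3 Ctrl-TAC hearts lie above all other hearts, and Cebpg and Cebpz overlap across the groups. How many of all genes separate in this way was not counted, and 16.8% were called higher in Ctrl-TAC against Ctrl-Sham.

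Without pressure overload, the comparison that is independent of the choice of Cebpb, its values in CIP-OE-Sham hearts were 13.3 ± 4.51 (SD, n = 3) against 29.2 ± 13.9 (SD, n = 3) in Ctrl-Sham hearts. The difference was -1.03 ± 0.48 (SE) on the log2 scale with a 95% interval of -2.06 to 0.0030. It was not called (limma, adjusted p = 0.446), and the highest CIP-OE-Sham heart (18.4) lay above the lowest Ctrl-Sham heart (18.0). Without Ctrl_Sham_4011 it was -0.68. In the sham hearts 0.0149% of the genes were called higher and 0.00747% lower, and DESeq2 on recovered reads called 55 genes where limma called 3. The summed level of the 9 macrophage markers, none at 0, was 1063 to 1120 in CIP-OE-Sham and 1086 to 1676 in Ctrl-Sham hearts. That of the 6 smooth muscle and pericyte markers was 4309 to 6232 in CIP-OE-Sham and 6753 to 7330 in Ctrl-Sham hearts. That of the 6 endothelial markers was 4280 to 5306 in CIP-OE-Sham and 3945 to 4043 in Ctrl-Sham hearts. The part of these cell types in the Cebpb values was not tested.

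The exons of Cebpb share 312 bases with Tmem189 on the opposite strand. No source used here says whether reads were counted by strand, so reads there cannot be told apart. Tmem189 measured 181 to 203 normalized counts in Ctrl-TAC and 109 to 163 in the other hearts, and was not called in any of the 5 comparisons. The next gene on the other side, Ptpn1, was not called in any of them either.

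Cebpd, the gene of C/EBPδ, rose with pressure overload in control hearts and is the only one of the 4 genes tested there that was called. It measured 76.5, 56.0 and 19.1 normalized counts in Ctrl-Sham, 158, 125 and 106 in Ctrl-TAC, 30.8, 22.7 and 41.1 in CIP-OE-Sham and 47.0, 63.8 and 80.8 in CIP-OE-TAC hearts. No Ctrl-TAC value overlapped with those of the other 9 hearts, and among the sham hearts Ctrl_Sham_4033 was the lowest. How common such a separation is among all genes was not counted. The rise in Ctrl-TAC against Ctrl-Sham was 2.89-fold (log2 1.53 ± 0.42 SE, limma, adjusted p = 0.0114), where 16.8% of all genes were called higher and 13.7% lower. Without Ctrl_Sham_4033 it was 0.96 (adjusted p = 0.0135), and after correction of each library for GC content it was 1.39 (adjusted p = 0.0318). The 1324 genes of like GC content had a median of 0.22 there, with 18.0% called higher.

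In CIP-OE hearts the same surgery gave 2.0-fold more Cebpd (log2 1.0 ± 0.42 SE, 95% interval 0.094 to 1.91), which was not called (limma, adjusted p = 0.330). Each CIP-OE-TAC value lay above each CIP-OE-Sham value, but the share of all genes with such a separation was not counted. In that comparison 0.732% of the genes were called higher and 0.478% lower. Whether the 2 responses differ was not tested, because the difference contains the contrast that chose the genes. Cebpd in CIP-OE-TAC hearts was 1.02 ± 0.42 (SE) lower than in Ctrl-TAC and 0.51 ± 0.42 higher than in Ctrl-Sham hearts (limma, adjusted p = 0.541), where 2.73% of all genes were called higher and 1.6% lower. Without Ctrl_Sham_4033 that last difference was -0.069. Between the sham groups it was 0.49 ± 0.42 lower in CIP-OE (limma, adjusted p = 0.700).

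Cebpd (ENSMUSG00000071637) is 1 exon on the plus strand of chromosome 16 (15887286 to 15891031) with 51.6% GC. It shares 562 exonic bases with Spidr on the other strand, which measured 14.8 to 36.7 normalized counts in the 12 hearts and was not called in any comparison. The 7 fibroblast markers, none at 0, summed to 7683 to 10776.5 in Ctrl-TAC, 5338 to 5972 in Ctrl-Sham, 5108 to 5978 in CIP-OE-Sham and 6235 to 10973.5 in CIP-OE-TAC hearts. Of the 6 endothelial markers, none at 0, 3 were called higher in Ctrl-TAC against Ctrl-Sham, as were 3 of the 7 fibroblast markers, and none was called lower. Of the 9 macrophage markers 2 were called higher and 2 lower there, where 16.8% of all genes were called higher and 13.7% lower. These calls are from values without a GC correction. The part of any of these cell types in the Cebpd and Cebpb values was not tested. Markers of neutrophils, in which C/EBP factors are abundant, were low, with Mpo, Elane and Camp at 0 in all hearts and sums over the 10 markers of 13.9 to 38.1 in Ctrl-TAC, 11.7 to 75.5 in Ctrl-Sham, 6.33 to 27.0 in CIP-OE-Sham and 21.8 to 190.3 in CIP-OE-TAC hearts.

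Cebpa, the gene of C/EBPα, was a rare transcript that was higher in the Ctrl-TAC hearts. It measured 25.8, 26.5 and 17.0 normalized counts in Ctrl-Sham, 48.9, 47.8 and 44.3 in Ctrl-TAC, 18.5, 28.1 and 16.9 in CIP-OE-Sham and 26.2, 22.5 and 23.5 in CIP-OE-TAC hearts. The 3 Ctrl-TAC hearts lay close together and above the other 9, which overlapped with each other. The share of all genes with this pattern was not counted. As a description, Cebpa was 1.02 ± 0.27 (SE) higher on the log2 scale with TAC in control hearts and 0.94 ± 0.27 lower in CIP-OE-TAC than in Ctrl-TAC hearts. Between CIP-OE-TAC and CIP-OE-Sham the difference was 0.21 ± 0.27, and between CIP-OE-TAC and Ctrl-Sham it was 0.081 ± 0.27. In the sham hearts, where it could be tested, Cebpa differed by -0.13 ± 0.27 (SE, 95% interval -0.70 to 0.44, limma, adjusted p = 0.890).

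Cebpa (ENSMUSG00000034957) is 1 exon of 62.6% GC on the plus strand of chromosome 7 (35119293 to 35121928). Cebpg, its neighbour on the opposite strand, lies 62720 bases away and had a Pearson correlation of -0.37 with it over the 12 libraries. After the GC correction the Cebpa difference between Ctrl-TAC and Ctrl-Sham was 0.071, and that between CIP-OE-TAC and Ctrl-TAC was -0.23. Cebpa, Cebpb and Cited4 are among the 1324 GC-richest genes, whose median difference was 0.78 in Ctrl-TAC against Ctrl-Sham, with 56.4% of them called higher, and -0.56 in CIP-OE-TAC against Ctrl-TAC, with 28.9% called lower.

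**Figure D2:**
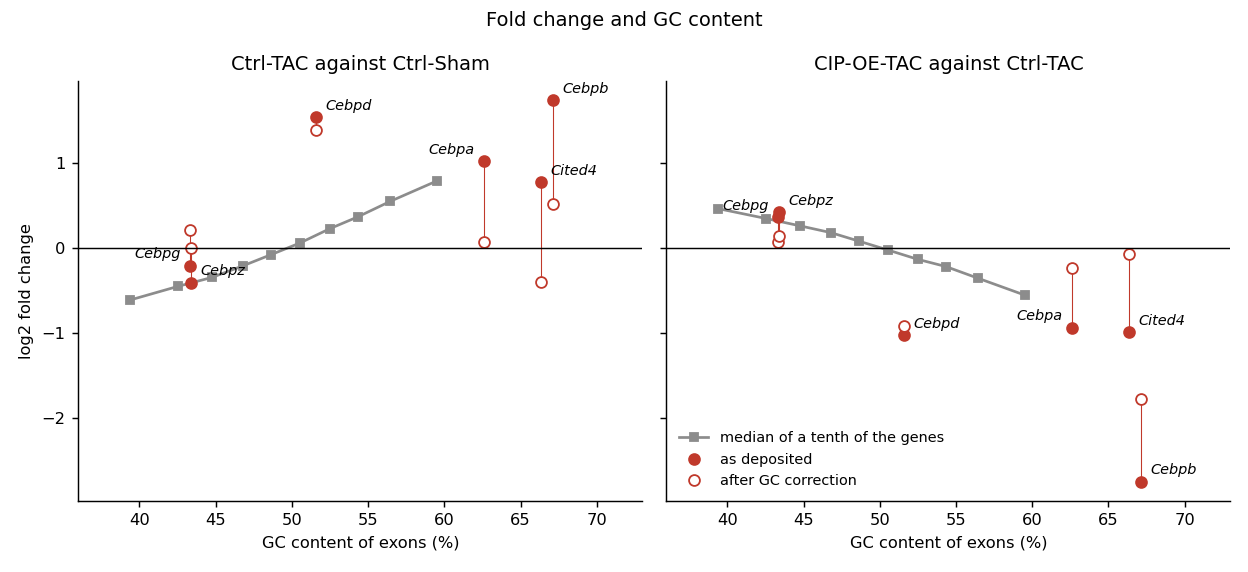
GC content of the exons (x axis, %) and log2 fold change (y axis) for Ctrl-TAC against Ctrl-Sham and CIP-OE-TAC against Ctrl-TAC. Grey squares are medians of 10 classes of genes by GC, filled points the 6 genes as deposited and open points the same genes after each library was corrected for GC. Cebpa and Cited4 move close to or across 0 (Cebpa from 1.02 to 0.071 in Ctrl-TAC against Ctrl-Sham), and Cebpd stays at 1.39 there. Cebpb moves toward 0 in both panels, from 1.73 in Ctrl-TAC against Ctrl-Sham and from -2.75 to -1.78 in CIP-OE-TAC against Ctrl-TAC.

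In CIP-OE-TAC beside Ctrl-TAC hearts more of the Cebpb difference was left by the correction than of the Cebpa or Cited4 difference. For Cebpb it was -1.78 after correction for GC and -1.73 after correction for GC and length. Cebpb was chosen for its low values in this contrast, so nothing is read from the size of what was left. Its difference between Ctrl-TAC and Ctrl-Sham was 0.51 after the GC correction. In CIP-OE-Sham against Ctrl-Sham, where the median of the GC-richest genes was 0.17, Cebpb was -1.23 after the correction (limma, adjusted p = 0.368).

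Cited4, the CBP/p300-binding co-activator, had wide spreads within 3 of the 4 groups and was not called in any tested comparison. It measured 66.5, 60.05 and 56.2 normalized counts in Ctrl-Sham, 97.0, 174 and 67.7 in Ctrl-TAC, 33.2, 33.5 and 87.5 in CIP-OE-Sham and 33.8, 81.6 and 50.7 in CIP-OE-TAC hearts. Each Ctrl-TAC value lay above each Ctrl-Sham value, but KI_Sham_3737 and KI_TAC_3579 lay above the lowest Ctrl-TAC heart. The share of all genes with such a separation of Ctrl-TAC from Ctrl-Sham was not counted. The difference between Ctrl-TAC and Ctrl-Sham was 0.77 ± 0.43 (SE) on the log2 scale and was not called (limma, adjusted p = 0.171). DESeq2 on recovered reads called it (0.89, adjusted p = 0.0441), as did limma on those 2 groups alone (adjusted p = 0.0461), and after the GC correction it was -0.40.

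As a description, Cited4 differed by -0.995 ± 0.43 (SE) between CIP-OE-TAC and Ctrl-TAC hearts, -0.63 without Ctrl_TAC_3800 and -0.073 after the GC correction. It was not called in CIP-OE-TAC against CIP-OE-Sham (0.17 ± 0.43 SE, limma, adjusted p = 0.931), in CIP-OE-TAC against Ctrl-Sham (-0.22 ± 0.43, adjusted p = 0.819) or in CIP-OE-Sham against Ctrl-Sham (-0.39 ± 0.43, adjusted p = 0.773, 95% interval -1.33 to 0.55). Cited4 (ENSMUSG00000070803) is 1 exon of 66.4% GC on the plus strand of chromosome 4 (120666572 to 120667820), with no annotated gene over it. Over the 12 libraries the Pearson correlation of Cited4 with Cebpb was 0.61, with Cebpd 0.66 and with Cebpa 0.49, a description over libraries that share their groups and base composition.

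Cebpg, the dimer partner without an activation domain, was not called in any tested comparison. It measured 225, 186 and 192 normalized counts in Ctrl-Sham, 140.4, 169 and 219 in Ctrl-TAC, 243, 196 and 160.3 in CIP-OE-Sham and 209.6, 256 and 207 in CIP-OE-TAC hearts, and the 4 groups overlapped. The difference between Ctrl-TAC and Ctrl-Sham was -0.21 ± 0.17 (SE, limma, adjusted p = 0.349), and 0.21 after the GC correction. It was 0.18 in CIP-OE-TAC against CIP-OE-Sham (adjusted p = 0.763), -0.027 in CIP-OE-Sham against Ctrl-Sham (adjusted p = 0.971) and 0.15 in CIP-OE-TAC against Ctrl-Sham hearts (adjusted p = 0.670). Its intervals in these 4 comparisons ran from -0.57 at the lowest to 0.54 at the highest bound, so that a 2-fold change lay outside each of them. The description of CIP-OE-TAC against Ctrl-TAC was 0.36 ± 0.17 higher.

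Cebpz, the ribosome-assembly relative, was not called in any tested comparison either. It measured 274, 186 and 176 normalized counts in Ctrl-Sham, 159.8, 125 and 191 in Ctrl-TAC, 187, 222 and 181 in CIP-OE-Sham and 178, 233 and 222 in CIP-OE-TAC hearts. The Ctrl-TAC difference from Ctrl-Sham was -0.41 ± 0.18 (SE, limma, adjusted p = 0.0765) and 0.0015 after the GC correction. The other tested differences were 0.095 in CIP-OE-TAC against CIP-OE-Sham, -0.085 in CIP-OE-Sham against Ctrl-Sham and 0.010 in CIP-OE-TAC against Ctrl-Sham hearts, with adjusted p from limma of 0.896, 0.891 and 0.985. As a description it was 0.42 ± 0.18 higher in CIP-OE-TAC than in Ctrl-TAC hearts. Cebpg (ENSMUSG00000056216, 43.3% GC, 3 exon blocks, chromosome 7, 35046422 to 35056573, minus strand) and Cebpz (ENSMUSG00000024081, 43.4% GC, 16 exon blocks, chromosome 17, 78919006 to 78937066, minus strand) lie in the second of 10 classes of genes by rising GC, whose median was -0.45 in Ctrl-TAC against Ctrl-Sham and 0.34 in CIP-OE-TAC against Ctrl-TAC. Cebpz shares 171 exonic bases with Cebpzos on the other strand, which was not called in any comparison.

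**Figure D3:**
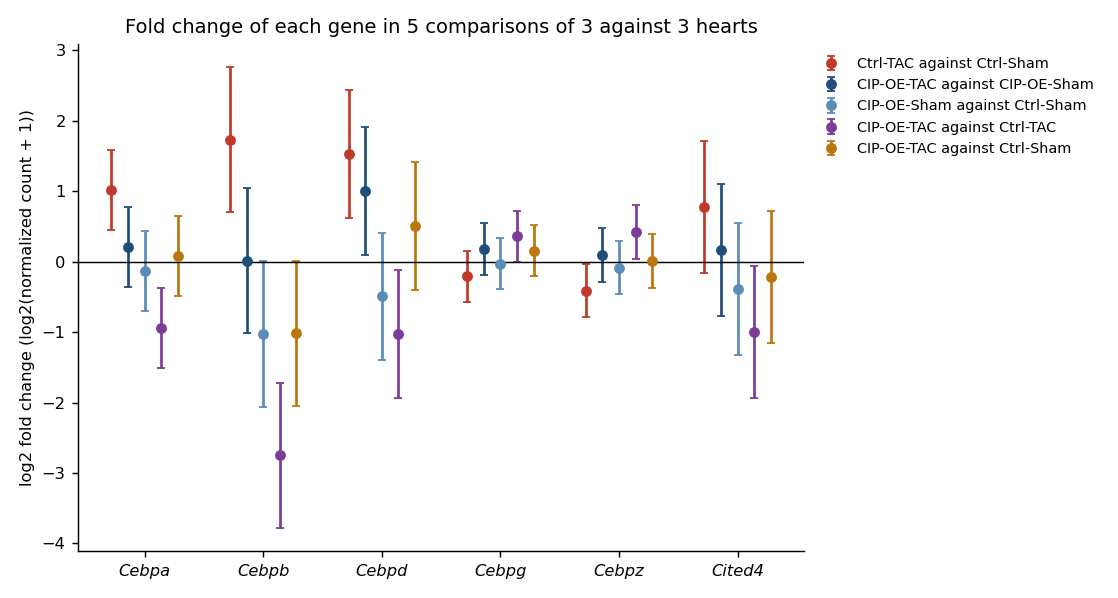
log2 fold change (on log2(normalized count + 1), y axis) of the 6 genes (x axis) in 5 comparisons of 3 against 3 hearts. Bars are the 95% interval of the fit, which does not allow for how the genes were chosen. Cebpb spans -2.75 (CIP-OE-TAC against Ctrl-TAC) to 1.73 (Ctrl-TAC against Ctrl-Sham), and Cebpg and Cebpz stay between -0.41 and 0.42.

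Levels of different genes were compared as reads per 1000 bases of exon and 1000000 gene reads. In Ctrl-Sham hearts the order was Cited4 (6.46 ± 0.75, SD, n = 3), Cebpz (6.05 ± 1.73), Cebpg (4.74 ± 0.64), Cebpb (2.56 ± 1.20), Cebpd (1.80 ± 1.07) and Cebpa (1.16 ± 0.29). Cebpz overlapped in range with Cited4 and Cebpg, and Cebpd with Cebpb and Cebpa. In Ctrl-TAC hearts Cited4 (14.1 ± 7.76) and Cebpb (9.71 ± 2.93) came first and overlapped, and Cebpd (5.26 ± 0.95), Cebpz (5.16 ± 0.89) and Cebpg (4.79 ± 1.11) overlapped, above Cebpa (2.72 ± 0.23). In CIP-OE-TAC hearts Cebpz (6.33 ± 1.15), Cited4 (6.23 ± 2.89) and Cebpg (5.56 ± 0.82) overlapped at the top, and Cebpd (2.39 ± 0.74), Cebpb (1.43 ± 0.90) and Cebpa (1.27 ± 0.047) followed, with Cebpb overlapping both. In CIP-OE-Sham hearts Cebpz (5.19 ± 0.73), Cited4 (5.18 ± 3.48) and Cebpg (4.31 ± 0.55) overlapped, as did Cebpb (1.09 ± 0.40), Cebpd (1.04 ± 0.36) and Cebpa (0.99 ± 0.30).

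The make-up of the 4 bZIP C/EBP transcripts does not depend on the scaling of a library, but it does on its base composition, since Cebpb has 67.2% GC and Cebpg 43.3%. The shares are from reads without a GC correction, after which the difference between Ctrl-TAC and Ctrl-Sham was 0.51 for Cebpb, from 1.73, and 0.21 for Cebpg, from -0.21. Cebpb took 19.0, 33.9 and 20.8% of the summed reads per length of Cebpa, Cebpb, Cebpd and Cebpg in Ctrl-Sham, 50.4, 42.3 and 34.9% in Ctrl-TAC, 10.1, 19.2 and 14.4% in CIP-OE-Sham and 17.1, 18.0 and 4.44% in CIP-OE-TAC hearts. Cebpg took 14.4 to 30.2% in Ctrl-TAC, 37.7 to 59.2% in Ctrl-Sham, 53.2 to 66.5% in CIP-OE-Sham and 51.7 to 52.5% in CIP-OE-TAC hearts. Cebpa kept 9.85 to 16.7% in all 12 hearts. There were 0.31 to 0.93 Cebpb reads per Cebpg read in Ctrl-TAC hearts and 0.023 to 0.24 in the other 9. Between Cebpb and Cebpd the groups were less far apart, with 0.64 to 0.83 Cebpb reads per Cebpd read in Ctrl-TAC, 0.32 to 0.94 in Ctrl-Sham, 0.28 to 0.81 in CIP-OE-Sham and 0.058 to 0.40 in CIP-OE-TAC hearts.

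**Figure D4:**
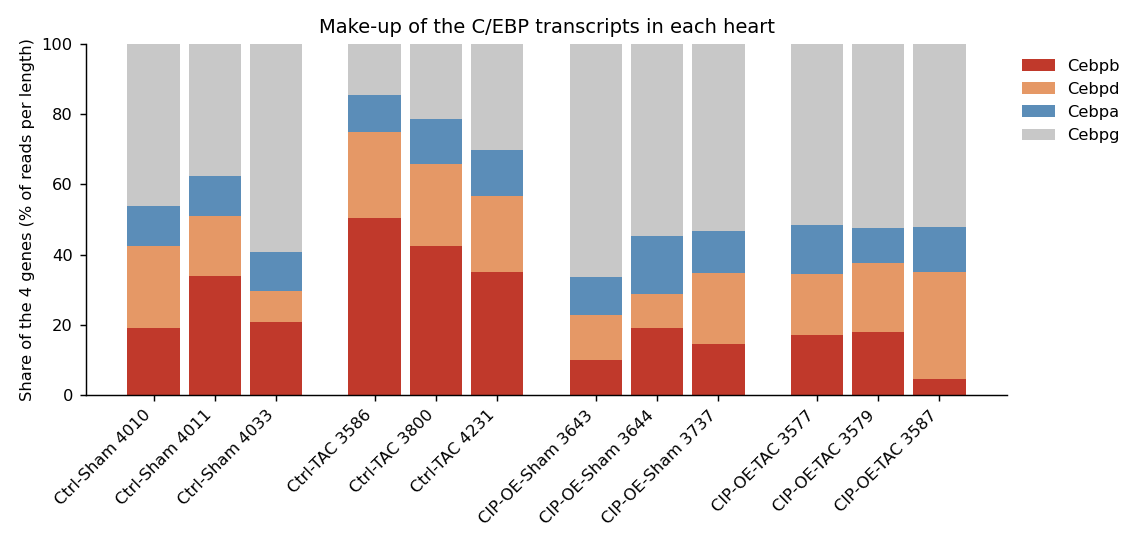
Share of Cebpb, Cebpd, Cebpa and Cebpg (y axis, % of their summed reads per exon length) in each heart, labelled by group and animal number. Cebpb makes up 34.9 to 50.4% in Ctrl-TAC and 4.44 to 19.2% in the CIP-OE hearts, where Cebpg makes up 51.7 to 66.5%, without a GC correction.

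The genes whose pattern over the 12 libraries was most like that of Cebpb, among 8408 genes with a mean of at least 50, were Oas2, an interferon-induced antiviral enzyme (Pearson r = 0.93), Csnk2b, the regulatory subunit of casein kinase II (r = 0.92), the mitochondrial ribosomal proteins Mrpl34 (r = 0.91) and Mrpl55 (r = 0.91), and the cardiac homeobox factor Nkx2-5 (r = 0.90). For Cited4 they were Banf1, a chromatin-binding protein of the nuclear envelope (r = 0.89), Tbca, a tubulin folding cofactor (r = 0.87), Fam162a (r = 0.85), the endocytic protein Pacsin2 (r = 0.84) and Ptpa, an activator of protein phosphatase 2A (r = 0.84). Each of the 10 had its highest group mean in Ctrl-TAC, which is also where Cebpb and Cited4 were highest. These libraries share their groups and base composition, and no test was made.

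Among other bZIP factors that C/EBPs can pair with, 21 of 25 passed the filter on low values. In Ctrl-TAC against Ctrl-Sham 7 rose and 3 fell, where 16.8% of all genes were called higher and 13.7% lower, with a median of 0.31 (log2) beside 0.0022 for all genes tested. Atf5 (1.59, adjusted p = 2.78e-06), the stress factor Atf4 (0.82, adjusted p = 3.99e-05), Junb (1.63, adjusted p = 8.96e-05), Jun (1.70, adjusted p = 0.000274) and Atf3 (2.91, adjusted p = 0.0126) rose, and the clock-controlled factor Hlf fell by 2.17 (adjusted p = 0.00387). In CIP-OE-TAC against Ctrl-TAC none was higher and 3 were lower, where the shares of all genes were 4.82% and 6.88%. Junb fell by 1.35 (adjusted p = 0.00236), Atf5 by 0.95 (adjusted p = 0.00205) and Jun by 0.86 (adjusted p = 0.0374). After the GC correction the falls of Junb, Atf5 and Jun were not called, nor were the rises of Junb (0.68, adjusted p = 0.0535) and Atf4 (0.38, under the fold of 1.5) in Ctrl-TAC, and the rise of Atf5 was 0.70 (adjusted p = 0.00240). The most abundant members were Tef (mean 1183 normalized counts) and Atf6 (1070), and Cebpe and Jund were listed at 0 in all hearts. A listed 0 cannot tell a gene that is not expressed from a gene whose reads were not counted.

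The IL-6 and NF-κB pathways are inputs to C/EBPs. Il6 itself was near 0, with a mean of 1.66 normalized counts, as were Tnf (4.71) and Il1b (5.96), and none passed the filter. Of 18 of 26 genes tested, 4 rose and 1 fell in Ctrl-TAC against Ctrl-Sham (median 0.23), beside 16.8% and 13.7% of all genes, among them the NF-κB subunit Rela (1.003, adjusted p = 1.15e-05), the IL-11 receptor Il11ra1 (0.90, adjusted p = 0.000362) and the receptor Lifr, which fell by 1.22 (adjusted p = 1.09e-05). After the GC correction Rela (0.26, adjusted p = 0.114) and Il11ra1 (0.53, under the fold of 1.5) were not called there, and Lifr still was (-0.86). Between CIP-OE-TAC and Ctrl-TAC hearts Lifr was higher (0.64, adjusted p = 0.00975) and Il11ra1 lower (-0.66, adjusted p = 0.0120), 1 call in each direction beside 4.82% and 6.88% of all genes, and neither was called after the GC correction. The adaptor Myd88 was called higher in CIP-OE-TAC against Ctrl-Sham (0.89, adjusted p = 0.0160). It was not called in Ctrl-TAC against Ctrl-Sham (0.46) or in CIP-OE-TAC against Ctrl-TAC (0.43). The common receptor chain Il6st (mean 1451) and the kinase Jak1 (972) were the most abundant and were called in none of the 5 comparisons.

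Of the acute-phase and inflammatory genes known as C/EBP targets, 11 of 26 passed the filter, and those of the liver (serum amyloids, fibrinogen, orosomucoids) were near 0. In Ctrl-TAC against Ctrl-Sham 4 of the 11 rose and none fell (median 0.16), beside 16.8% and 13.7% of all genes. These were the protease inhibitors Serpina3n (1.95, adjusted p = 0.00257) and Timp1 (2.29, adjusted p = 0.00778) and the metallothioneins Mt1 (1.36, adjusted p = 0.00277) and Mt2. Between CIP-OE-TAC and Ctrl-TAC 1 of the 11 was lower, beside 6.88% of all genes. This was Mt1, which fell by 0.98 (adjusted p = 0.0338) and was not called after the GC correction. Ceruloplasmin (Cp) was 0.41 higher and not called (adjusted p = 0.0625). Complement C3 (mean 1318) and Mt1 (1085) were the most abundant.

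Of 20 adipogenic and lipid storage genes 12 were tested, and 4 rose and 2 fell in Ctrl-TAC against Ctrl-Sham (median 0.22), beside 16.8% and 13.7% of all genes. Klf4, a Krüppel-like factor that acts upstream of Cebpb in mouse preadipocytes, rose with TAC in control hearts (1.83, adjusted p = 1.05e-06), in CIP-OE-TAC against CIP-OE-Sham (0.94, adjusted p = 0.0158) and in CIP-OE-TAC against Ctrl-Sham hearts (1.02, adjusted p = 0.00352), and was lower in CIP-OE-TAC than in Ctrl-TAC (-0.82, adjusted p = 0.00638). The lipid droplet protein Plin5 rose in Ctrl-TAC (0.72, adjusted p = 0.00223) and was lower in CIP-OE-TAC against Ctrl-TAC (-0.76, adjusted p = 0.00590), where Klf4 and Plin5 were the 2 of 12 called lower, beside 6.88% of all genes. After the GC correction the Plin5 difference in Ctrl-TAC was 0.017 (adjusted p = 0.955), and neither gene was called in CIP-OE-TAC against Ctrl-TAC. Lipoprotein lipase (Lpl, the most abundant with a mean of 37193) fell by 1.002 in Ctrl-TAC (adjusted p = 7.10e-06), and the fatty acid transporter Cd36 (mean 12921) was at -0.55 (adjusted p = 0.00564, under the fold of 1.5). Of the 7 adipocyte markers only Fabp4 passed the filter and Lep was at 0.

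In a list of cardiac factors and targets of SRF, 3 of 16 rose and 3 fell in Ctrl-TAC against Ctrl-Sham (median -0.26), near the 16.8% and 13.7% of all genes, with Srf (0.98, adjusted p = 5.37e-05) and Nkx2-5 (1.27, adjusted p = 0.00194) higher and Mef2a lower (-1.04, adjusted p = 2.93e-05). After the GC correction Srf was at -0.079, Nkx2-5 at 0.055 and Mef2a at -0.56 (under the fold of 1.5), and none of them was called there. In CIP-OE-TAC against Ctrl-TAC Nkx2-5 was lower (-1.54, adjusted p = 0.00277) and Mef2a higher (0.62, adjusted p = 0.00912), 1 of 16 in each direction beside 6.88% and 4.82% of all genes. Neither was called after the GC correction, with Nkx2-5 at -0.57 (limma, adjusted p = 0.109) and Mef2a at 0.27 (adjusted p = 0.310). Myh6 (mean 72945) and Actc1 (62455) were not called in any of the 5 comparisons.

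Of 20 genes that modify or degrade C/EBP proteins, 3 rose and 3 fell in Ctrl-TAC against Ctrl-Sham (median 0.26), near the 16.8% and 13.7% of all genes. None was called in CIP-OE-TAC against Ctrl-TAC, beside 4.82% and 6.88% of all genes. The methyltransferase Ehmt2 (0.90, adjusted p = 0.000118), the kinase Gsk3a (0.78, adjusted p = 0.000169) and Rps6ka1, a kinase of C/EBPβ (1.29, adjusted p = 0.000442), rose, and the ubiquitin ligase subunit Fbxw7 fell by 0.91 (adjusted p = 0.000220). Gsk3a was at -0.54 in CIP-OE-TAC against Ctrl-TAC (adjusted p = 0.0107, under the fold of 1.5). After the GC correction Ehmt2 (0.077) and Gsk3a (0.016) were not called in Ctrl-TAC. Rps6ka1 was called higher in CIP-OE-TAC against Ctrl-Sham (0.89, adjusted p = 0.0396), but not after the GC correction (0.72, adjusted p = 0.0977). Calr (mean 1407) was the most abundant and was not called, and the C/EBPβ translation factor Celf1 was listed at 0 in all hearts. Whether Celf1 was not expressed or its reads were not counted cannot be told.

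Of the relatives and partners of Cited4, 5 of 9 passed the filter and none was called in any comparison. In Ctrl-TAC against Ctrl-Sham the co-activator Crebbp was at 0.38 (adjusted p = 0.0356, under the fold of 1.5) and Hif1a at -0.36 (adjusted p = 0.106). Cited2 was -0.49 in CIP-OE-TAC against Ctrl-TAC (adjusted p = 0.0234, under the fold of 1.5) and Hif1a 0.36 (adjusted p = 0.157). Epas1 (mean 2310 normalized counts) and Hif1a (664) were the most abundant, and Cited1 did not pass the filter.

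Around Cebpz, 24 of 25 genes of ribosome biogenesis were tested. In Ctrl-TAC against Ctrl-Sham 3 rose and 3 fell (median 0.088), beside 16.8% and 13.7% of all genes, with Rrp12 higher (1.18, adjusted p = 1.74e-05) and nucleophosmin (Npm1) lower (-1.15, adjusted p = 7.81e-06). Npm1 was 1.11 higher in CIP-OE-TAC than in Ctrl-TAC hearts (adjusted p = 0.000186), the 1 gene of this list called there, beside 4.82% of all genes called higher, and Rrp12 was 0.97 higher in CIP-OE-TAC than in Ctrl-Sham hearts (adjusted p = 0.00196). Nucleolin (Ncl, mean 1121) was 0.41 higher in CIP-OE-TAC against Ctrl-TAC (adjusted p = 0.0223, under the fold of 1.5), and Ddx21 (298) was not called.

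Of 16 genes of insulin and growth factor signalling, which feeds into C/EBPβ in the heart, 1 rose and 3 fell in Ctrl-TAC against Ctrl-Sham (median -0.27), beside 16.8% and 13.7% of all genes. In CIP-OE-TAC beside Ctrl-TAC hearts 3 were higher and none lower (median 0.27), where the shares of all genes were 4.82% and 6.88%. Pik3r1, the regulatory subunit of PI3 kinase, fell by 1.38 in Ctrl-TAC (adjusted p = 0.000159) and Foxo3 by 0.72 (adjusted p = 0.000941). Pik3r1 (0.72, adjusted p = 0.0301) and the mTORC2 subunit Rictor (0.63, adjusted p = 0.00729) were higher in CIP-OE-TAC than in Ctrl-TAC. Rictor was not called there after the GC correction (0.30, limma, adjusted p = 0.265). Igf1r was called higher in both Ctrl-TAC (0.72, adjusted p = 0.00607) and CIP-OE-TAC hearts (0.73, adjusted p = 0.0327) against Ctrl-Sham. Between CIP-OE-TAC and Ctrl-TAC hearts Igf1r differed by 0.0078 (adjusted p = 0.981). The most abundant members Insr (1439) and Igf2r (1292) were called in no comparison.

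No gene of these 9 lists was called in CIP-OE-Sham against Ctrl-Sham, the comparison with 2 genes called higher and 1 lower among all 13392. Of the list genes named for their small p in Ctrl-TAC against Ctrl-Sham, 16 were called and 10 of them were still called after the GC correction, while Atf4, Ehmt2, Gsk3a, Mef2a, Rela and Srf were not. In CIP-OE-TAC against Ctrl-TAC, 12 were called and 1, Npm1, was still called after it. The 2 comparisons share the Ctrl-TAC libraries.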

How the data were processed

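RNA of 12 mouse hearts was sequenced, and samples were grouped by the submitters' labels. Per the labels and the paper, the authors counted reads per gene and deposited a normalized signal, the count over a size factor of each library. The methods of the paper name STAR, featureCounts and DESeq2 with mm10, while the submitters' processing notes list GRCm38, DESeq2 1.4.5, StringTie 2.1.4 and HISAT2 2.0.4. The strand setting was not found in any source used here. All values were whole multiples of 1 read within a tolerance of 0.001 (100%), so reads were recovered, 6990445 to 7704812 per library. The table held 54515 rows, and 633 exact duplicates were removed.

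Values were tested on log2(value + 1) with limma 3.58.1 (trend, robust) in R 4.3.3, in 1 fit of all 12 libraries and 4 group means, restricted to the 13392 genes that reached 10 in at least 3 libraries, with Benjamini-Hochberg adjustment over all of them. All 6 genes described passed this filter. A gene was called at an adjusted p under 0.05 and a fold over 1.5. With 3 animals a group, p-values reflect the spread between animals, and the depth limits genes of few reads. Alternatives were edgeR 4.0.16 and DESeq2 1.42.0 on recovered reads, pseudocounts of 0.1 and 5, other filters and scalings, only the groups compared, correction of each library for GC content (98.9% of the genes had a value) with or without length, and leaving out each library. The test was checked on simulated counts. These were drawn with no difference in base composition between groups, so that check does not cover the composition of the Ctrl-TAC libraries. Lengths, GC and coordinates came from GENCODE M21 of GRCm38, promoters from RefSeq.

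In each list the 2 most abundant genes and the 2 with the smallest p in Ctrl-TAC against Ctrl-Sham and in CIP-OE-TAC against Ctrl-TAC are named, and some further genes were named after their values were seen. A few genes are not reported here. The genes described and the lists were chosen with earlier results of these data known.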

Additional observations from a re-analysis of the deposited data

How the results depend on the processing

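Of the 5 counts of genes called, those of Ctrl-TAC against Ctrl-Sham (4091) and CIP-OE-TAC against Ctrl-TAC (1567) fell to 1925 and 340 after correction for GC, and to 1944 and 363 after correction for GC and length. The 162 genes of CIP-OE-TAC against CIP-OE-Sham became 296 with DESeq2 and 265 with only the groups compared, and the 3 of CIP-OE-Sham against Ctrl-Sham became 55 with DESeq2, 10 with no filter and 50 with only the groups compared. Scaling to totals that leave out mitochondrial genes and the top 20 changed the split in CIP-OE-TAC against Ctrl-TAC from 646 higher and 921 lower to 853 and 769. Leaving out 1 library at a time gave 3470 to 4102 genes for Ctrl-TAC against Ctrl-Sham, 39 to 228 for CIP-OE-TAC against CIP-OE-Sham, 0 to 16 for CIP-OE-Sham against Ctrl-Sham, 938 to 1827 for CIP-OE-TAC against Ctrl-TAC and 240 to 709 for CIP-OE-TAC against Ctrl-Sham (main 580).

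Differences (log2) that changed sign were small, changed with the GC correction or changed when 1 library was left out. In Ctrl-TAC against Ctrl-Sham, GC and GC with length gave 0.21 and 0.20 for Cebpg, -0.40 and -0.39 for Cited4, 0.16 and 0.15 for Hif1a and -0.079 and -0.095 for Srf, and GC alone gave 0.0015 for Cebpz. In CIP-OE-Sham against Ctrl-Sham they gave 0.081 and 0.074 for Cebpg and 0.023 and 0.029 for Cebpz. In CIP-OE-TAC against Ctrl-TAC they gave -0.012 and -0.011 for Hif1a and 0.012 and 0.032 for Gsk3a. In CIP-OE-TAC against Ctrl-Sham, Cebpz was at -0.0084 with edgeR and -0.0093 with DESeq2. Leaving out 1 library at a time gave, in CIP-OE-Sham against Ctrl-Sham, -0.34 to 0.0097 for Cebpa, -0.18 to 0.12 for Cebpg and -0.20 to 0.11 for Cebpz, in CIP-OE-TAC against Ctrl-Sham -0.069 to 0.90 for Cebpd, -0.11 to 0.21 for Cebpz and -0.54 to 0.082 for Cited4, and in CIP-OE-TAC against CIP-OE-Sham -0.15 to 0.62 for Cited4. The cause was not tested.

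Cebpd in Ctrl-TAC against Ctrl-Sham was called under all 24 alternatives, with adjusted p from 0.00044 to 0.0481. No paired analysis was possible because the groups share no animal numbers. Genes with few reads, such as Cebpa and Cebpb, are limited by counting error.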
